A study of Rattus norvegicus with 16 samples.

Results

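The comparison described here set hippocampus 30 days after an iron infusion against hippocampus 5 days after it, which the depositors name the chronic and the acute phase. It used the 4 Fe day 30 and the 4 Fe day 5 arrays, 8 of the 16 arrays in all, chosen by their labels alone. Both groups were male Wistar rats that carried a cannula in the right amygdala, placed at 5 weeks of age, and that received 1.0 µl of 100 mM FeCl3 in saline at pH 2.2 through it 5 days later. The right hippocampus was taken at day 30 or at day 5, and the 16 rats of the series gave 1 array each. The other 8 arrays, 4 of Fe day 15 and 4 of saline controls collected at day 15, entered no test and appear only as levels. The day 30 rats were also older at collection, so time since the infusion and age cannot be told apart. The model has its own limits. Iron was placed in the amygdala and not in the tissue measured, the iron-treated animals had recurrent seizures whose number was not counted, some rats that the labels do not name carried a further cannula for microdialysis, and the series has no saline rats collected at day 5 or day 30.

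Iron salts set free in brain tissue drive lipid peroxidation, and an infusion into the amygdala is used as a model of epilepsy after bleeding or head injury. Seizures reach the hippocampus, where firing neurons switch on immediate early genes within minutes and growth factors and neuropeptides within hours. In the weeks after a first seizure, glial cells can react, blood vessels and the dentate gyrus can be remodelled, and newborn granule cells can increase and later decline. The lists below cover these processes, the cell types of the hippocampus and of the tissues that border it, iron handling, and lipid metabolism.

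Values are given as log2 signal relative to the 75th percentile of the same array, so that 0 is a probe at that percentile and a step of 1 is a 2-fold step. They rank one probe across arrays and not one gene against another. The 75th percentile of the raw signal lay between 672.5 and 833.9 on the Fe day 30 arrays, against 693.2 to 924.5 on the Fe day 5 arrays. Between 75.4% and 81.6% of the transcript spots were well above background on these 8 arrays. All 8 hippocampal markers checked, among them Prox1 and C1ql2 of the dentate granule cells, Wfs1 of CA1 and Grik4 of CA3, were well above background on 8 of 8 arrays.

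Several arrays stood apart before any comparison was made. In Fe day 30 replicate 3, 1187 features lay at least 2-fold above the mean of the other 3 arrays of the group, against 147, 342 and 161 in Fe day 30 replicates 1, 2 and 4. In the Fe day 5 group, replicate 2 had 885 such features, against 145, 367 and 285 in replicates 1, 3 and 4. Arrays of Fe day 30 correlated across features at 0.977 to 0.993 (Pearson's r), those of Fe day 5 at 0.981 to 0.990, and arrays of different groups at 0.976 to 0.993. The medians were 0.985, 0.987 and 0.989, and without replicate 3 the Fe day 30 arrays correlated at 0.991 to 0.993. The markers of choroid plexus and meninges, tissues that touch the hippocampus and are not part of it, differed most between these arrays. For many lists the median is given again without the 3 arrays that scored highest for both tissues. They were Fe day 30 replicate 3 and Fe day 5 replicates 2 and 3. Of the Fe day 5 arrays, replicates 1 and 4 alone then remained. The 2 slides that held arrays of both groups paired Fe day 30 replicates 1 and 2 with Fe day 5 replicates 2 and 3. Each within-slide difference below is thus 1 array minus 1 array, and its day 5 array is 1 of the 3.

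Between day 30 and day 5, 1 of 27633 features of hippocampal RNA passed the threshold given next. It was a probe without a gene name, and no named gene passed. Features are genes with a symbol (9521) or probes without one (18112), and the word called is used of a feature whose limma p, adjusted by Benjamini and Hochberg's method, was under 0.05. The calls made up 0.00362% of the features, 0 of them higher and 1 lower at day 30. Among genes with a symbol the lowest adjusted p was 1.00. Before adjustment, 708 features (2.56%) had a p under 0.05. At day 30, 361 of these were higher (1.31%) and 347 lower (1.26%). The 4 values of day 30 lay wholly above or below the 4 values of day 5 in 439 features (1.59%), 227 higher (0.821%) and 212 lower (0.767%). Where nothing differs, a share of about 0.05 would have such a p and about 0.0286 would not overlap. Neither share seen here exceeded that. Across all features 14275 differences were above 0 and 13358 below, with a median of 0.0043.

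Most differences could be bounded. The 95% interval lay within a 2-fold change in either direction for 25071 features (90.7%) and within a 1.5-fold change for 20156 (72.9%). A difference of 2-fold or more was estimated for 127 features (0.460%), 55 higher and 72 lower at day 30, and in 22 of them the groups did not overlap. The median standard error of a difference was 0.13, and at that error an unadjusted p of 0.05 was reached at a difference of 0.31 on the log2 scale. For a value tested by itself, 4 arrays against 4 cannot go below an exact permutation p of 0.0286.

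**Figure D1:**
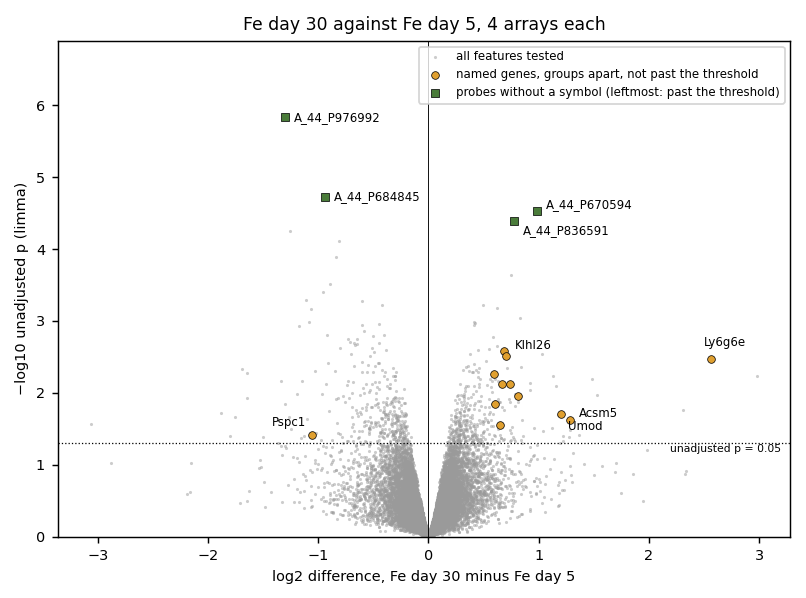
Each grey point is 1 of the 27633 features, with the log2 difference of Fe day 30 minus Fe day 5 on the x axis and minus log10 of the unadjusted limma p on the y axis, 4 arrays a group. Green squares are the probes without a symbol named in the text, of which A_44_P976992 alone passed the threshold, and orange circles are the named genes, all with an adjusted p of 1.00.

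The called feature, probe A_44_P976992, read -0.63, -0.62, -0.68 and -0.64 on the 4 Fe day 30 arrays, against 0.75, 0.89, 0.50 and 0.49 on the 4 Fe day 5 arrays. The groups did not overlap, and the day 30 values were close together. The difference was -1.30 ± 0.11 (SE), a signal 2.47-fold lower at day 30 (limma, adjusted p = 0.040). It was -1.53 and -1.12 on the 2 slides that held an array of both groups. Within the other groups the probe varied more widely. It read -1.25, -1.40, -1.01 and 0.67 on the Fe day 15 arrays and 1.01, -0.32, 0.57 and 1.24 in the controls, so that the control arrays lay on both sides of 0. With all 16 arrays in 1 model the adjusted p of A_44_P976992 was 1.00, and without each of the 8 arrays in turn it ran from 0.0812 to 0.336.

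The next 3 probes without a symbol, chosen after their values were seen, also separated the groups and missed the threshold. Probe A_44_P684845 read -1.34, -1.45, -1.35 and -1.26 at day 30, against -0.65, -0.21, -0.45 and -0.34 at day 5, a difference of -0.94 ± 0.11 (limma, adjusted p = 0.26). Probe A_44_P670594 read -3.52, -3.51, -3.51 and -3.24 at day 30, against -4.25, -4.40, -4.37 and -4.70 at day 5, a difference of 0.99 ± 0.12 (limma, adjusted p = 0.27). In both, the Fe day 15 arrays ranged over both levels, from -1.91 to -0.24 for the first and from -4.46 to -2.83 for the second. So did their controls, from -1.36 to 0.51 and from -4.64 to -3.42. Probe A_44_P836591 read 2.71, 2.63, 3.01 and 2.78 at day 30, against 2.07, 2.03, 1.99 and 1.94 at day 5, a difference of 0.77 ± 0.10 (limma, adjusted p = 0.28). Its Fe day 15 arrays ran from 2.15 to 2.98 and its controls from 2.06 to 2.91. No gene name was given to these probes by the tables used here, so nothing can be said of what they measure.

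**Figure D2:**
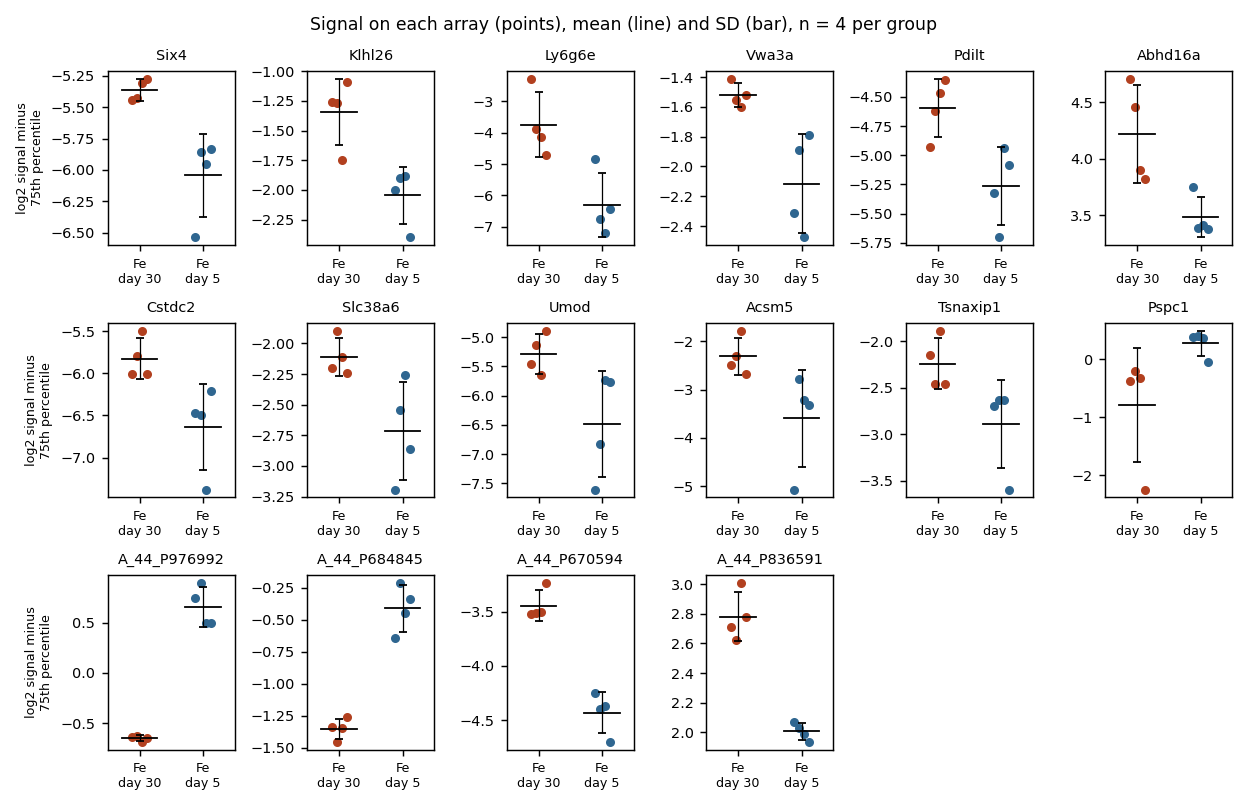
The log2 signal relative to the array's 75th percentile is plotted for each named gene and probe, Fe day 30 left of Fe day 5, with points for arrays, a line for the mean and bars for the SD (n = 4 each). In every panel the groups do not overlap, and the points of Ly6g6e, Acsm5 and Pspc1 spread over more than 2 log2 units within at least 1 group.

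Since no gene with a symbol was called, the genes named next are those of lowest unadjusted p among the genes whose groups did not overlap and that differed by at least 1.5-fold. The 12 described here each had an adjusted p of 1.00 in limma, and their values are a description of these arrays. At day 30, 11 of them were higher and 1 was lower.

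Ly6g6e, a member of the Ly6 family of small lipid-anchored surface proteins, read -2.27, -3.87, -4.13 and -4.71 at day 30, against -4.84, -6.76, -7.21 and -6.42 at day 5, a difference of 2.56 ± 0.63 or 5.92-fold. That size depended on the handling of background, and with normexp correction the difference of Ly6g6e was 0.91. The lowest day 30 array and the highest day 5 array were close, and the probe was well above background on 3 of the 4 day 5 arrays. Controls read between -7.34 and -5.97, around the 3 lower day 5 arrays, and Fe day 15 between -6.88 and -4.55.

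Abhd16a, a lipase that makes lysophosphatidylserine, read 4.71, 4.46, 3.90 and 3.82 at day 30, against 3.75, 3.39, 3.41 and 3.38 at day 5, a difference of 0.74 ± 0.21. Controls lay between 3.40 and 3.50, with the 3 lower day 5 arrays. The Fe day 15 arrays were split, at 4.72 and 4.09 in replicates 1 and 3 and at 3.34 and 3.29 in replicates 2 and 4.

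For Klhl26, a kelch-family adaptor of a ubiquitin ligase, the order of the groups was another. It read -1.26, -1.26, -1.74 and -1.09 at day 30, against -1.999, -1.90, -1.89 and -2.40 at day 5, a difference of 0.70 ± 0.17. The controls averaged -1.36 ± 0.40 and Fe day 15 averaged -1.36 ± 0.27 (SD, n = 4 each), so that the day 5 arrays were the low ones. Six4, a homeobox transcription factor, read -5.44, -5.43, -5.30 and -5.27 at day 30, against -6.54, -5.85, -5.95 and -5.83 at day 5, a difference of 0.68 ± 0.16. Its signal was dim, well above background on 3 of 4 day 5 arrays, and with normexp correction the difference of Six4 was 0.25.

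Some of the rest are best known outside the brain. Umod encodes the main protein of urine and Pdilt a protein folding factor of the testis. Umod differed by 1.20 ± 0.42, with 3 of 4 day 5 arrays above background, and by 0.33 with normexp correction. Pdilt differed by 0.67 ± 0.19. Acsm5, a mitochondrial acyl-CoA synthetase, read -2.49, -2.31, -1.78 and -2.67 at day 30, against -5.07, -2.78, -3.21 and -3.33 at day 5, a difference of 1.28 ± 0.47. The other probe of Acsm5 gave 0.67, and the controls ran from -5.02 to -1.36. The remaining higher genes were Vwa3a at 0.60 ± 0.16, Tsnaxip1 at 0.65 ± 0.24, Cstdc2 at 0.81 ± 0.25 (0.27 with normexp correction) with 2 of 4 day 5 arrays above background, and the amino acid transporter gene Slc38a6 at 0.60 ± 0.19. For Slc38a6 the other 2 probes of the gene disagreed, with differences of 0.29 and -0.33.

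The 1 lower gene was Pspc1, a protein of nuclear paraspeckles. It read -0.38, -0.20, -0.33 and -2.24 at day 30, against 0.38, 0.40, 0.37 and -0.05 at day 5, a difference of -1.06 ± 0.43. Replicate 4 was the lowest array in both groups. The controls, at 0.45 to 0.67, were above both.

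The 42 gene lists held 882 distinct genes that were tested. None was called. An unadjusted p under 0.05 was found for 19 (2.15%), of which 9 were higher at day 30 and 10 lower, and in 4 (0.454%) the groups did not overlap. Over all features the corresponding shares were 2.56% and 1.59%. List genes all have a symbol, and of the 9521 genes with one, 146 had an unadjusted p under 0.05. Among those 9521 the groups did not overlap in 53 genes higher and 41 lower at day 30. In no list did the scores of the groups lie apart. To score an array for a list, each member's mean over the 8 arrays was taken from its log2 signal there, and the median over members was kept. The 19 genes are named below with their lists. They were picked after their values were seen, and each had an adjusted p of 1.00 in limma.

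**Figure D3:**
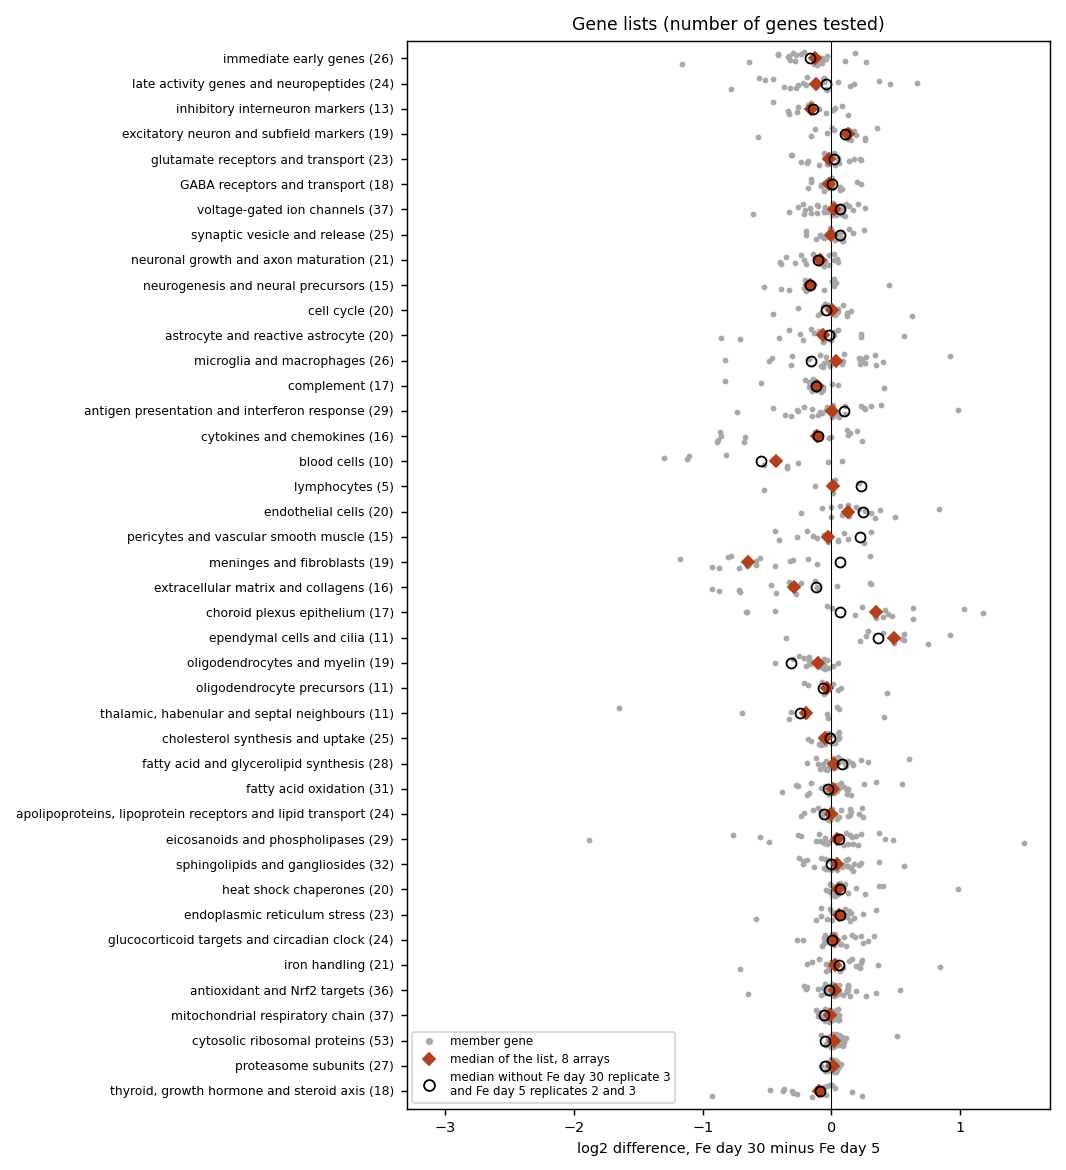
Each row is a gene list with the number of its genes tested, each grey point a gene, and the x axis the log2 difference of Fe day 30 minus Fe day 5. Diamonds mark the median over 8 arrays and open circles the median without the 3 arrays high in choroid plexus or meningeal markers. The meningeal median moves from -0.64 to 0.07 and the choroid plexus median from 0.35 to 0.07. The 3 arrays were picked by their scores on these lists, which share members such as Igf2.

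Immediate early genes, the transcription factors and regulators that seizures switch on first, were slightly lower at day 30 in most members. Of 26 tested of 30, 23 differences were below 0 and 3 above, with a median of -0.13, against 0.0043 over all features. None was called, and 2 had an unadjusted p under 0.05. Jund, a subunit of AP-1, read 4.72, 4.29, 4.48 and 4.31 at day 30, against 4.55, 4.79, 4.94 and 5.18 at day 5, a difference of -0.41 ± 0.15. Atf3, a stress-induced factor of the same superfamily, read -2.79, -3.14, -1.77 and -3.90, against -1.57, -0.85, -2.11 and -2.42, a difference of -1.16 ± 0.48. In each of these the groups overlapped by 1 or more arrays.

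Nr4a3, an orphan nuclear receptor and the single member whose groups lay apart, read 2.16, 2.09, 1.44 and 2.06 at day 30, against 2.18, 2.33, 2.25 and 2.20 at day 5, a difference of -0.30 ± 0.16. Its gap between the groups was small, and Fe day 30 replicate 3 was far below the others. Fos, the classic marker of recent firing, read -0.58, 0.17, -0.91 and -0.30, against -0.19, -0.37, -0.67 and 0.89, a difference of -0.32 ± 0.35. Arc, a synaptic plasticity gene, read 3.12, 3.00, 2.68 and 4.28, against 3.26, 2.36, 3.44 and 4.48, a difference of -0.11 ± 0.48. For both, the arrays of a day differed more among themselves than the days did. The list score was -0.08, -0.10, -0.32 and 0.22 at day 30, against -0.07, -0.10, 0.04 and 0.34 at day 5. Controls scored 0.25 to 0.41, and replicate 4 of each day was the array nearest to them. The within-slide medians were 0.03 and -0.13, so the small shift was not seen on the first shared slide. Without the 3 arrays the median was -0.17. Egr1 had no probe with that symbol, and Npas4 was too dim to be tested.

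Late activity genes and neuropeptides gave a median of -0.12 over 24 tested of 26, with 6 above 0 and 18 below, and of -0.04 without the 3 arrays. Pdyn, the precursor of dynorphins in granule cells, read 3.84, 3.94, 3.54 and 3.38 at day 30, against 2.84, 2.28, 3.56 and 3.37 at day 5, a difference of 0.66 ± 0.28. It was the list's 1 member at an unadjusted p under 0.05, and 2 day 5 arrays were as high as the lower day 30 arrays. Bdnf, the activity-regulated neurotrophin, was level at the same probe, with 0.58, 0.54, 0.35 and 0.62 at day 30, against 0.56, 0.36, 0.64 and 0.66 at day 5. Its difference was -0.03 ± 0.10, with a 95% interval from -0.27 to 0.20, and -0.13 at its other probe. Controls read 0.77 to 1.07 at the first of these probes, above all 8 arrays compared.

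Markers of inhibitory interneurons had a median of -0.16 over 13 tested of 18, 4 above 0 and 9 below, with none at an unadjusted p under 0.05. Sst, the peptide of dendrite-targeting interneurons, read 4.02, 3.93, 3.57 and 4.50 at day 30, against 4.33, 4.83, 3.92 and 4.77 at day 5, a difference of -0.46 ± 0.25. Gad1, which makes GABA, differed by 0.01 ± 0.13. Within slides the list medians were -0.36 and 0.24, of opposite sign. In bulk tissue, fewer cells of a type and less RNA per cell cannot be told apart.

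Markers of excitatory neurons and subfields had a median of 0.13 over 19 tested of 22, 15 above 0 and 4 below, and of 0.10 without the 3 arrays. The within-slide medians were 0.58 and -0.22. Fe day 5 replicate 2 was the lowest of the 8 arrays in 10 of the 19 genes. C1ql2, a synaptic organizer of mossy fibres, read 3.50, 3.49, 3.31 and 3.50 at day 30, against 3.38, 2.52, 3.43 and 3.43 at day 5, so that this array alone was low. Prox1, the granule cell identity factor, differed by 0.17 ± 0.33. The 1 member at an unadjusted p under 0.05 was Etv1, an ETS transcription factor, with 3.35, 3.46, 3.41 and 3.47 at day 30, against 4.23, 4.25, 3.16 and 4.32 at day 5. The difference was -0.57 ± 0.25, and the day 5 arrays fell into 3 high and 1 low.

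The genes of synaptic transmission stayed close to 0. Glutamate receptors and transporters had a median of -0.02 over 23 tested of 29, 11 above 0 and 12 below, and GABA receptors and transporters -0.02 over 18 of 20, 8 above and 10 below. Voltage-gated ion channels had a median of 0.02 over 37 of 42, and synaptic vesicle and release genes of -0.00 over 25 of 26. None of these 4 lists held a member at an unadjusted p under 0.05, in limma. The 95% interval lay within a 2-fold change for 21 of 23, 17 of 18, 35 of 37 and 24 of 25 of their genes. Among the channels, Scn3a, a sodium channel of young neurons, differed by -0.22 ± 0.11, and Cacna2d2, a calcium channel subunit, by -0.61 ± 0.37. Grin2b, an NMDA receptor subunit, differed by 0.18 ± 0.15.

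Genes of neuronal growth were mostly a little lower at day 30. The list of growth and axon maturation had 17 of 21 tested differences below 0 (28 listed), with a median of -0.09, and of -0.10 without the 3 arrays. Gap43, the growth cone protein of sprouting axons, read 4.35, 4.22, 4.02 and 4.17 at day 30, against 4.56, 4.89, 4.32 and 4.59 at day 5. The groups overlapped by the values 4.35 and 4.32 alone, and the difference was -0.40 ± 0.13, the list's 1 gene at an unadjusted p under 0.05. Dpysl3 and Dpysl5, collapsin response mediators of axon guidance, differed by -0.20 ± 0.09 and -0.28 ± 0.14. The within-slide medians were -0.12 and 0.11, of opposite sign.

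Neurogenesis genes had a median of -0.16 over 15 tested of 18, 5 above 0 and 10 below. Dcx, the marker of newborn neurons, read 1.62, 1.84, 1.61 and 1.26 at day 30, against 2.21, 2.40, 1.63 and 1.66 at day 5, a difference of -0.40 ± 0.21. The day 5 arrays were 2 high and 2 within the day 30 range, and the controls, at 1.38 to 1.65, lay with day 30. Hes5, a Notch target of stem cells, differed by -0.53 ± 0.29, and Sox11 of young neurons by -0.16 ± 0.18. Cell cycle genes had a median of 0.00 over 20 tested of 28. Their 1 gene at an unadjusted p under 0.05 was Ccna2, the cyclin of S phase, which read -4.47, -4.39, -4.11 and -4.98 at day 30, against -3.88, -4.16, -4.28 and -3.83 at day 5, a difference of -0.45 ± 0.19.

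Astrocyte genes had a median of -0.07 over 20 tested of 27, 6 above 0 and 14 below, with none at an unadjusted p under 0.05. Gfap, the filament protein of reactive astrocytes, read 1.20, 2.01, 2.40 and 1.70 at day 30, against 1.51, 1.35, 0.94 and 1.27 at day 5, a difference of 0.56 ± 0.25 with a 95% interval from -0.00 to 1.13. Controls read 0.75 to 2.11 and overlapped both days. Aqp4, the astrocyte water channel, differed by -0.01 ± 0.08 and the glutamate transporter Slc1a2 by 0.02 ± 0.12.

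Oligodendrocyte and myelin genes had 17 of 19 tested differences below 0 (27 listed), with a median of -0.10, and of -0.31 without the 3 arrays. A single array stood out: in 19 of 19 genes the highest of the 8 values was that of Fe day 5 replicate 4. The list score of that array was 0.51, against -0.40 to 0.08 on the other day 5 arrays and -0.31 to 0.09 on the day 30 arrays. Mal, a myelin lipid raft protein, read 2.49, 2.38, 2.43 and 2.56 at day 30, against 2.67, 2.41, 3.05 and 3.50 at day 5, a difference of -0.44 ± 0.21. Mbp, myelin basic protein, differed by 0.05 ± 0.19. All 19 intervals lay within a 2-fold change. Precursor genes had a median of -0.04 over 11 tested of 16.

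Over the 8 arrays, microglia and macrophage genes were evenly split, with 13 of 26 tested differences above 0 and 13 below (30 listed) and a median of 0.03. None had an unadjusted p under 0.05. In 22 of the 26 genes the highest of the 8 arrays was Fe day 30 replicate 3, and in 16 the lowest was Fe day 30 replicate 4. Aif1, the microglial protein Iba1, read 2.62, 2.65, 3.64 and 2.45 at day 30, against 2.96, 3.10, 2.90 and 2.65 at day 5, a difference of -0.06 ± 0.25. Without the 3 arrays the list median was -0.16. Within slides it was -0.47 and -0.14, on slides that held Fe day 5 replicates 2 and 3 and not Fe day 30 replicate 3. P2ry12, a receptor of resting microglia, differed by -0.05 ± 0.19, and Spp1 of activated ones by 0.92 ± 1.14, where Fe day 30 replicate 3 read 0.82 and the other 7 arrays between -5.23 and -2.68.

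Complement genes had 14 of 17 tested differences below 0, median -0.11, and cytokines and chemokines 11 of 16, median -0.12. Il1b, the inflammatory cytokine, read -4.90, -4.28, -3.59 and -5.72 at day 30, against -4.04, -3.05, -3.92 and -4.02 at day 5, a difference of -0.86 ± 0.44. Antigen presentation and interferon genes were at 0.01 over 29 tested of 32. Cd74, the invariant chain of class II molecules, read -2.43, -1.08, 3.42 and -1.53, against -0.47, 1.83, 0.15 and -1.86, a difference of -0.32 ± 1.29. In 13 of 17 complement genes and 20 of 29 antigen presentation genes the highest array was again Fe day 30 replicate 3, the array also highest for choroid plexus markers. Without the 3 arrays the medians were -0.12 for complement, 0.09 for antigen presentation and -0.11 for cytokines. The 2 shared slides did not hold that array, and their day 5 arrays were replicates 2 and 3, also among the 3. Within these slides complement was at -0.73 and -0.42 and antigen presentation at -0.64 and -0.69. Cytokines were at -0.63 and -0.31 there. The part of choroid plexus tissue in these values was not tested. None of the 3 lists held a gene at an unadjusted p under 0.05.

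Blood cell genes were the list with the lowest median apart from the meninges, at -0.43 over 10 tested of 20, 1 above 0 and 9 below, and -0.55 without the 3 arrays. S100a9, a protein of neutrophils and monocytes, read -5.97, -5.10, -4.53 and -6.23 at day 30, against -5.00, -3.87, -4.22 and -4.30 at day 5. The difference was -1.11 ± 0.40, or 2.15-fold lower, and -0.22 with normexp background correction, under which the median of blood cells was -0.20. The controls of S100a9 read -6.26 to -5.51, below every day 5 array. The platelet chemokine Pf4 differed by -1.12 ± 0.55. Beta globin, Hbb, differed by -0.26 ± 0.50. The within-slide medians were -1.99 and -0.18. S100a9 was the list's 1 gene at an unadjusted p under 0.05. Only 5 of 18 lymphocyte genes could be tested, with a median of 0.01, and of 0.23 without the 3 arrays.

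Endothelial genes were the list with most members at an unadjusted p under 0.05, 4 of 20 tested (25 listed), and none was called. Such a p was found for 2.56% of all features and for 146 of the 9521 genes with a symbol. The list had 16 differences above 0 and 4 below, with a median of 0.13, and 0.25 without the 3 arrays. Fe day 5 replicate 4, which that reduced set kept, was the lowest of the 8 arrays in 11 of the 20 genes. Mfsd2a, the lipid transporter of the blood-brain barrier, read 1.23, 1.09, 1.13 and 1.23 at day 30, against 1.12, 0.90, 0.81 and 0.80 at day 5, a difference of 0.26 ± 0.10. Flt1, a receptor for VEGF, read -3.03, -3.18, -3.17 and -3.58, against -3.59, -3.46, -3.50 and -3.64, a difference of 0.31 ± 0.12. In both genes 1 day 30 array lay within the day 5 range.

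Abcg2, a drug efflux pump of the barrier, read -1.08, -0.58, -1.28 and -1.26 at day 30, against -1.43, -1.15, -1.73 and -1.85 at day 5, a difference of 0.49 ± 0.20. Pecam1, a junction protein, read -3.69, -4.54, -4.91 and -5.55, against -5.66, -5.26, -5.30 and -5.83, a difference of 0.84 ± 0.36, and 0.24 with normexp background correction. The Fe day 15 and control arrays lay between -6.12 and -5.27, so that 3 day 30 arrays were above all others. Cldn5, the tight junction claudin, differed by 0.14 ± 0.13, and the glucose transporter Slc2a1 by 0.21 ± 0.13. The list score was 0.11, 0.20, 0.21 and -0.21 at day 30, against -0.22, 0.15, -0.01 and -0.33 at day 5, with replicate 4 the lowest on each day. The within-slide medians were -0.09 and 0.28. Pericyte and smooth muscle genes had a median of -0.03 over 15 tested of 18, and of 0.22 without the 3 arrays. Rgs5, the pericyte regulator of G protein signalling, read -0.32, -0.38, -0.54 and -0.85, against -0.82, -0.79, -0.78 and -0.93, a difference of 0.31 ± 0.12, and was this list's 1 gene at an unadjusted p under 0.05.

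**Figure D4:**
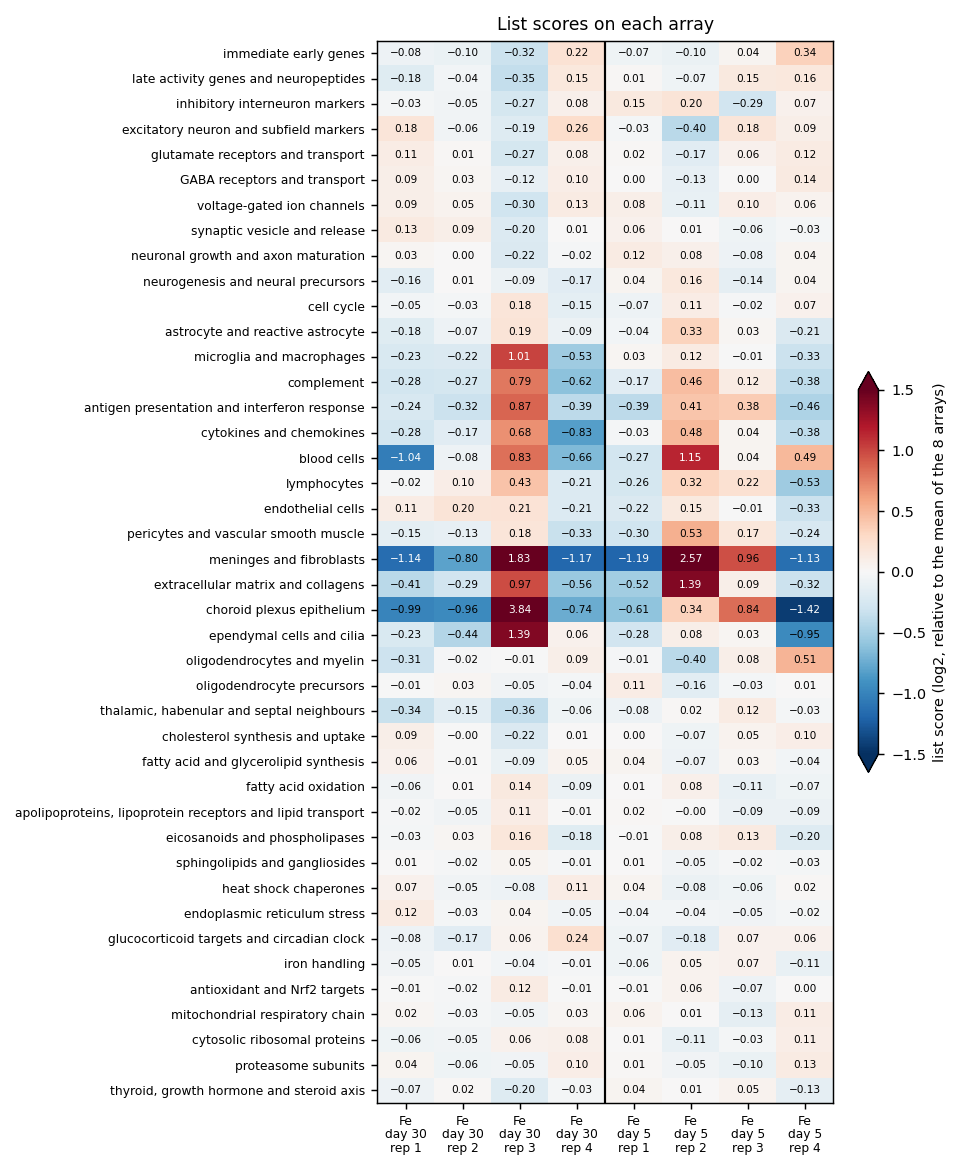
Each cell is the score of a gene list on an array, in log2 units relative to the mean of the 8 arrays, with the 4 Fe day 30 arrays left of the 4 Fe day 5 arrays, red for scores above 0 and blue for scores below; the colour scale ends at 1.5 in either direction. The choroid plexus score is 3.84 on Fe day 30 replicate 3 and below 0 on the other 3 day 30 arrays, and the meningeal score is 2.57 on Fe day 5 replicate 2 and 1.83 on Fe day 30 replicate 3.

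The tissues at the border of the hippocampus gave a wide spread. Choroid plexus genes scored -0.99, -0.96, 3.84 and -0.74 at day 30, against -0.61, 0.34, 0.84 and -1.42 at day 5, and -1.56 to -1.11 in the controls. In 16 of 17 tested genes (25 listed) the highest of the 8 arrays was Fe day 30 replicate 3. Ttr, transthyretin, the chief secreted protein of the choroid plexus, read -2.10, -2.25, 7.78 and 1.80 at day 30, against 1.18, 0.38, 4.60 and -0.81 at day 5. Its difference of -0.03 ± 2.24 had a 95% interval from -5.17 to 5.10, and without the 3 arrays the difference of Ttr was -1.04. Folr1, its folate receptor, read 2.75 on that array and between -3.81 and -0.91 on the other 7. The list median was 0.35 with all arrays and 0.07 without the 3, which were picked for high scores on this list and the meningeal list. Within the 2 shared slides, whose day 5 arrays were replicates 2 and 3, the median was -2.04 and -1.80, of the opposite sign. For 0 of 17 genes did the interval lie within a 2-fold change.

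Meningeal and fibroblast genes had a median of -0.64 over 19 tested of 23, 1 above 0 and 18 below. Without the 3 arrays it was 0.07. Those arrays were picked for high scores on this list and the choroid plexus list, so the change of sign is no independent check. Both lists hold Igf2, and their medians without the 3 arrays were the same value, 0.0667. Within the 2 shared slides, whose day 5 arrays were replicates 2 and 3, the meningeal median was -3.71 and -1.89. The score was -1.14, -0.80, 1.83 and -1.17 at day 30, against -1.19, 2.57, 0.96 and -1.13 at day 5. In 16 of the 19 genes Fe day 5 replicate 2 was the highest array. Igf2, a growth factor secreted by meninges and choroid plexus, read 1.95, 2.51, 6.39 and 1.92 at day 30, against 1.90, 6.54, 4.72 and 2.21 at day 5. Lum, the fibroblast proteoglycan lumican, differed by -0.59 ± 0.85. Matrix and collagen genes had a median of -0.29 over 16 tested of 33, and -0.12 without the 3 arrays. None of these 3 lists held a gene at an unadjusted p under 0.05.

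Ependymal and ciliary genes had 10 of 11 tested differences above 0 (21 listed), with a median of 0.48, and 0.36 without the 3 arrays. On both shared slides, whose day 5 arrays were replicates 2 and 3, the median was -0.42, the opposite sign. Fe day 30 replicate 3 was the highest array in 9 of the 11 genes and Fe day 5 replicate 4 the lowest in 10. Dnai1, a dynein chain of motile cilia, was the member whose groups did not overlap, with -1.82, -1.97, -1.98 and -1.99 at day 30, against -2.10, -2.004, -2.12 and -2.41 at day 5. Its difference was 0.22 ± 0.10. Foxj1, the master regulator of motile cilia, differed by 0.55 ± 0.57.

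Genes of thalamus, habenula and septum, which a dissection of the hippocampus can include, had a median of -0.19 over 11 tested of 18, 3 above 0 and 8 below. With normexp background correction the median of thalamic, habenular and septal neighbours was -0.026, and with marked spots kept it was -0.035. Tnnt1, a troponin that is also a marker of thalamic neurons, read -5.07, -4.74, -4.66 and -5.27 at day 30, against -3.63, -2.91, -1.94 and -4.67 at day 5. The difference was -1.65 ± 0.51, or 3.13-fold lower, the widest of the 19 list genes at an unadjusted p under 0.05 apart from Pla2g2a. Its controls ran from -5.23 to -3.30. The within-slide differences were -2.16 and -2.80.

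Heat shock chaperones had 15 of 20 tested differences above 0 (25 listed) and a median of 0.05. Hspa1a, the inducible HSP70, read 0.61, 0.44, 0.85 and 2.46 at day 30, against 0.31, 0.49, 0.08 and -0.45 at day 5, a difference of 0.98 ± 0.44, and 0.81 at its other probe. Fe day 30 replicate 4 was far above the rest, and 3 of the 4 Fe day 15 arrays were at 1.64 to 2.55. Hspb8, a small heat shock protein, read -1.48, -1.49, -0.67 and -1.45, against -1.67, -1.50, -1.66 and -1.72, a difference of 0.37 ± 0.19. The gap between its groups was narrow, with 3 day 30 arrays just above the day 5 range and replicate 3 far above it. None of this list had an unadjusted p under 0.05.

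Endoplasmic reticulum stress genes had a median of 0.06 over 23 tested of 29. Their 1 gene at an unadjusted p under 0.05 was Calr, the calcium-binding chaperone calreticulin, with 2.94, 3.02, 3.02 and 2.71 at day 30, against 3.83, 3.89, 3.44 and 2.89 at day 5, a difference of -0.59 ± 0.22. Controls read 3.67 to 4.03, above all day 30 arrays. Glucocorticoid and clock genes had a median of 0.02 over 24 tested of 30. Fkbp5, the glucocorticoid-induced chaperone, read 2.38, 2.11, 1.96 and 2.38, against 1.99, 1.78, 2.22 and 1.70, a difference of 0.28 ± 0.15, and 0.23 and 0.32 at its other 2 probes.

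Iron handling genes, whose products take up, store and release the metal, had a median of 0.03 over 21 tested of 30, 11 above 0 and 10 below. Hp, haptoglobin, which binds free haemoglobin, read 0.12, 0.19, -0.21 and -0.06 at day 30, against -0.25, -0.59, -0.01 and -0.54 at day 5, a difference of 0.36 ± 0.15, and was the 1 gene at an unadjusted p under 0.05. Fth1, the ferritin heavy chain that stores iron, read 6.31, 6.13, 5.80 and 6.01, against 5.98, 5.86, 6.38 and 6.09. The difference was -0.02 ± 0.15, and -0.18 at its other probe. The light chain Ftl1 differed by 0.09 ± 0.11. Hmox1, the haem-degrading enzyme, read -1.29, -1.52, -0.35 and -0.94, against -1.26, -1.10, -1.05 and -1.45, a difference of 0.19 ± 0.24. Tfrc, the transferrin receptor, had no probe with that symbol.

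Antioxidant genes had a median of 0.03 over 36 tested of 39. Gpx3, the secreted glutathione peroxidase, read -3.41, -4.34, -4.22 and -4.11 at day 30, against -3.40, -3.25, -3.11 and -3.75 at day 5, a difference of -0.64 ± 0.22. It was the list's 1 gene at an unadjusted p under 0.05, and day 30 replicate 1 lay within the day 5 range. Gsta1, a glutathione transferase, differed by 0.35 ± 0.15.

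Lipid metabolism was examined in 6 lists. Cholesterol synthesis and uptake had a median of -0.05 over 25 tested of 27, 8 above 0 and 17 below, and in 25 of 25 genes the interval lay within a 2-fold change. Hmgcs1, which condenses acetyl groups at the head of the pathway, read 4.96, 4.94, 4.61 and 5.03 at day 30, against 4.95, 4.74, 4.87 and 5.28 at day 5. The difference was -0.07 ± 0.14, and -0.24 at its other probe. In 19 of the 25 genes Fe day 30 replicate 3 was the lowest array. Fatty acid and glycerolipid synthesis was at 0.02 over 28 tested of 32, and 1 gene had an unadjusted p under 0.05. That gene was Mlxipl, the glucose-sensing factor ChREBP, with -2.61, -2.49, -1.92 and -2.99 at day 30, against -2.77, -3.11, -2.98 and -3.54 at day 5, a difference of 0.60 ± 0.24.

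Fatty acid oxidation had a median of 0.01 over 31 tested of 34. Ppara, the nuclear receptor that governs the pathway in liver, read -3.74, -3.57, -3.64 and -4.21 at day 30, against -4.37, -4.36, -4.02 and -4.59 at day 5, a difference of 0.55 ± 0.17. It was the list's 1 gene at an unadjusted p under 0.05, and within slides the differences were 0.62 and 0.45. Acaa1a, a peroxisomal thiolase and the member whose groups did not overlap, read 3.79, 3.58, 3.87 and 3.74, against 3.94, 4.04, 3.88 and 3.88, a difference of -0.19 ± 0.09. The gap between its groups was narrow.

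Apolipoproteins and lipid transport were at -0.00 over 24 tested of 38, with 12 above 0 and 12 below. Apoe, the chief lipid carrier of the brain, read 8.11, 7.96, 8.19 and 8.07 at day 30, against 7.96, 7.98, 7.89 and 7.92 at day 5, a difference of 0.15 ± 0.08, which turned to -0.04 with quantile normalization. Sphingolipid and ganglioside genes were at 0.04 over 32 tested of 38. Neither list held a gene at an unadjusted p under 0.05. Eicosanoid and phospholipase genes were at 0.04 over 29 tested of 39. Their 1 gene at an unadjusted p under 0.05, Pla2g2a, an inflammatory secreted phospholipase, read -6.89, -4.93, -5.84 and -7.57 at day 30, against -5.09, -3.60, -3.58 and -5.42 at day 5. The difference was -1.88 ± 0.65, with 2 of 4 day 30 arrays above background, and the controls read -7.93 to -5.43.

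General cell machinery was tightly bounded. Mitochondrial respiratory chain genes had a median of -0.01 over 37 tested of 46, with differences from -0.12 to 0.06 and all 37 intervals within a 2-fold change. Proteasome subunits had a median of 0.02 over 27 tested of 31, with all 27 intervals within a 2-fold change. Cytosolic ribosomal protein genes had a median of 0.02 over 53 tested of 59, 40 above 0 and 13 below, with 52 intervals within a 2-fold change. Without the 3 arrays the proteasome and ribosomal medians were both -0.05. In the hormone list of the thyroid, growth hormone and steroid axis, 14 of 18 tested differences were below 0 (25 listed), with a median of -0.09. Ghr, the growth hormone receptor, differed by -0.27 ± 0.12. None of these 4 lists held a gene at an unadjusted p under 0.05.

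**Figure D5:**
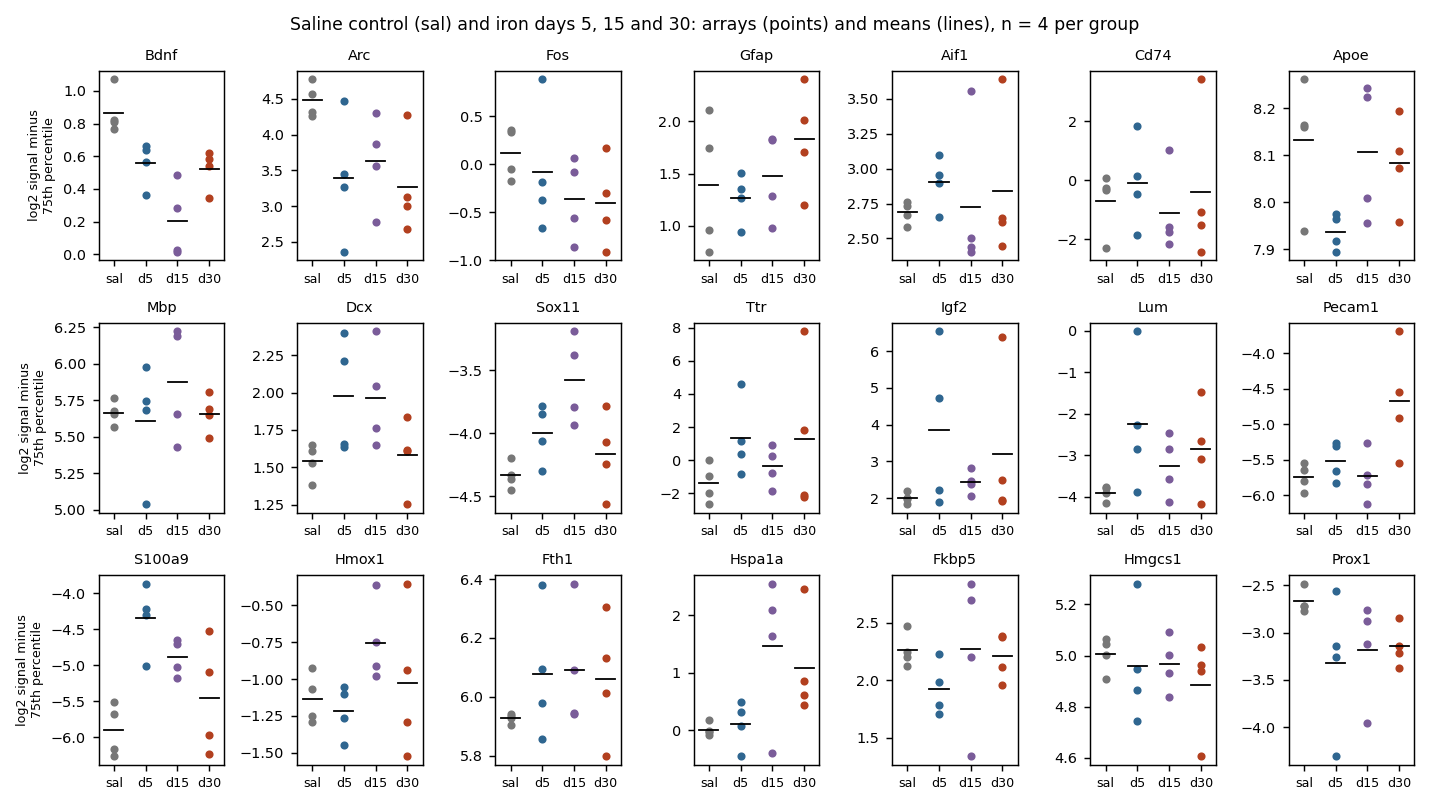
The log2 signal relative to the array's 75th percentile is plotted for 21 genes named whatever their values, in saline controls (sal) and at days 5, 15 and 30 after iron, with points for arrays and lines for means (n = 4 each); every panel has its own y axis. Day 30 and day 5 overlap in all 21 genes, and for Ttr, Igf2 and Cd74 the arrays of day 30 and of day 5 spread over more than 3 log2 units.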

How the data were processed

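RNA of the right hippocampus was hybridised to Agilent 1-colour arrays. The deposited files hold, per the file headers, the processed signal of each spot, a background-subtracted intensity on a linear scale, read per the submitters' processing notes with Agilent Feature Extraction 9.5; the authors' series table holds the same intensity values (100% equal at a relative tolerance of 1e-06). Arrays held 43379 transcript spots for 41012 probes, none saturated. Here log2 values were set relative to each array's 75th percentile, marked spots were dropped (32 probes), and spots of a probe averaged. A probe was kept where 1 group or both had it well above background on each of their 4 arrays (30283), and the brightest of a gene's probes was used (2196 genes had several). Symbols came from a RefSeq table (assembly GRCr8, for names only), which named 15184 of 20378 probes with a RefSeq accession. The model was fitted to the 8 arrays in R 4.3.3 with limma 3.58.1 (6 residual degrees of freedom), two-sided, with Benjamini-Hochberg adjustment over 27633 features. Precision is limited by the number of arrays. The series text counts 16 rats for the 16 arrays, so p-values measure the spread between animals.

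Genes were named by rule: up to 12 a direction among genes with a symbol whose groups do not overlap, called ones first and then, at 1.5-fold or more, those of lowest unadjusted p; in each of 42 lists up to 2 of lowest unadjusted p whose groups do not overlap; and 24 genes whatever their values. Of the genes the first part of the rule names, 1 is not reported here. Other list members named in the report fall outside this rule and were chosen after their values were seen. The members and lists were chosen with earlier results of these data known. Alternatives covered scaling, background correction (with median in place of mean spot signals, at an offset of 50), filters, models, slide, position, replicate number and left-out arrays. Same-numbered arrays of the groups correlated at 0.27, -0.07, 0.09 and 0.35 in their deviations from group means. The highest correlation with another number was 0.04, 0.16, 0.42 and 0.10. Replicates 1 and 4 thus correlated most with their own number, and replicates 2 and 3 did not. The numbers were not taken as pairs, and the replicate number served as a block in an alternative only. The fit was tested on simulated data, with 200 features changed in each run. It recovered 0 of them at a log2 difference of 0.5, 133 at 1 and 178 at 2, with 0, 9 and 8 false calls. The simulated noise was independent between features and held no shift shared across an array. These counts therefore do not give the share of real changes that the 8 arrays would show.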

Additional observations from a re-analysis of the deposited data

Results flagged for a closer look

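Among the named genes, probes and list scores, 168 groups of 4 arrays were checked for 1 array far from its group, and 15 such arrays were found; chance marks about 5% of groups. In 8 of the 15 the array was Fe day 30 replicate 3. On that array the choroid plexus score was 3.84 (the other 3 arrays lay between -0.99 and -0.74), the meningeal score 1.83 (-1.17 to -0.80), the antigen presentation score 0.87 (-0.39 to -0.24) and the antioxidant score 0.12 (-0.02 to -0.0059). The same array read 6.39 for Igf2 (1.92 to 2.51), 3.64 for Aif1 (2.45 to 2.65), -0.67 for Hspb8 (-1.49 to -1.45) and 1.44 for Nr4a3 (2.06 to 2.16).

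The other 7 were spread over 4 arrays. Fe day 30 replicate 4 read -2.24 for Pspc1 (-0.38 to -0.20) and -3.24 for A_44_P670594 (-3.52 to -3.51), and Fe day 30 replicate 1 read -1.82 for Dnai1 (-1.99 to -1.97). Fe day 5 replicate 4 read -0.052 for Pspc1 (0.37 to 0.40) and -3.60 for Tsnaxip1 (-2.69 to -2.63). Fe day 5 replicate 1 read -6.54 for Six4 (-5.95 to -5.83) and 3.75 for Abhd16a (3.38 to 3.41).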

How the results depend on the processing

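The 1 call, A_44_P976992, was also made in 10 alternatives that changed scaling, background, filter, probe choice, variance or weights, or took slide as a random block. It was not made, and 0 features were called, without the filter on dim probes, in one-way models of all 16 or of the 12 Fe arrays, with slide as a fixed block, with the replicate number as a block (909 features at an unadjusted p under 0.05), or without the 3 arrays high in choroid plexus or meningeal markers. Leaving out each array in turn gave 0 to 1 calls; the 1, without Fe day 30 replicate 3, was another probe, A_44_P417239 (adjusted p 0.0070). With position on the slide as a block, an alternative chosen after seeing the data, 12 features were called, 8 higher and 4 lower, none of them A_44_P976992; 3 had a symbol (Gtsf2, Or6f1 and Rnase4). Position 2 alone held both groups, so that contrast set Fe day 30 replicates 1 and 2 against the single array of Fe day 5 replicate 4, which is assumed to vary like the others, and position and day are nearly confounded. The 708 features at an unadjusted p under 0.05 became 1310 with array weights, 1411 with slide as a fixed block, 1373 without the 3 arrays, 2414 with the position block, and 614 to 1245 with each array left out, highest without Fe day 5 replicate 3.

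Differences that turned sign, none of them called, were Apoe (-0.040 with quantile normalization), Slc38a6 (-0.20), Sox11 (0.021) and Ttr (0.15) with normexp background correction, Ttr (0.066) with slide as a random block, and Fth1 (0.088) with array weights. With slide as a fixed block, which left 1 residual degree of freedom, they were Bdnf (0.060), Arc (0.16), Fos (0.31), Hmox1 (-0.33), Fth1 (0.099) and Hmgcs1 (0.15). Without the 3 arrays they were Mbp (-0.17), Igf2 (0.067), Lum (0.063) and Fth1 (0.11), and with the position block Cd74 (0.10), Mbp (-0.38), Dcx (0.069), Igf2 (0.016), Lum (1.01) and Fth1 (0.12). Leaving out each array in turn gave -0.33 to 0.068 for Aif1, -1.59 to 0.36 for Cd74, -0.14 to 0.17 for Mbp, -1.72 to 0.24 for Igf2, -1.13 to 0.16 for Lum, -0.16 to 0.42 for Prox1, -2.19 to 1.15 for Ttr, -0.097 to 0.085 for Fth1, -0.099 to 0.024 for Bdnf, -0.46 to 0.25 for Arc, -0.52 to 0.0021 for Fos, -0.15 to 0.034 for Hmgcs1 and -0.036 to 0.36 for Hmox1. The cause was not tested. With 4 arrays a group, a feature of median spread cannot be told from 0 below a log2 difference of 0.31, even before adjustment. With adjustment over all features, the fit recovered 0 of 200 features changed by a log2 difference of 0.5, simulated with independent noise.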
